A study of Mus musculus with 10 samples.

Results

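The cyclins and cyclin-dependent kinase inhibitors that set the passage from G1 into S phase were followed across 5 groups of mouse cells. They are 10 genes, chosen by symbol: the D-type cyclins Ccnd1, Ccnd2 and Ccnd3, the E-type cyclins Ccne1 and Ccne2, the Cip/Kip inhibitors Cdkn1a and Cdkn1b, and the Ink4 genes Cdkn2a, Cdkn2b and Cdkn2c. All 10 are among the 36066 genes of the table, and all 10 passed the filter on low values, which kept 27259 genes. RNA was sequenced from 10 libraries, 2 in each group, all of C57BL6 background. ESC libraries came from a female embryonic stem cell line derived from fertilized embryos, and pESC libraries from stem cells derived from parthenogenetically activated oocytes, which carry the maternal genome alone. Both kinds bear Actin-GFP and were grown with serum and LIF on feeder cells, then in medium with 2 kinase inhibitors and LIF before induction. ESC-PGCLC and pESC-PGCLC libraries are primordial germ cell-like cells induced from them, by way of epiblast-like cells for 2 days and then 4 days with SCF at 100 ng/mL, EGF at 50 ng/mL, BMP4 at 500 ng/mL and LIF at 1000 IU/mL, and sorted as SSEA1+ CD61+ cells. PGC libraries are primordial germ cells sorted by surface markers from gonads of female embryos. Their labels give no embryonic day. The sources used here do not give the number of lines or embryos behind each library, so the p-values measure the spread between these libraries.

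Cyclin D with Cdk4 or Cdk6, and then cyclin E with Cdk2, phosphorylate the retinoblastoma family of pocket proteins and free the E2F factors that turn on the genes of DNA replication. Ink4 proteins bind Cdk4 and Cdk6, whereas Cip/Kip proteins bind cyclin-Cdk complexes more widely, and Cdkn1a, which encodes p21, is a classic target of p53. Mouse embryonic stem cells are known for a short G1 phase, and primordial germ cells divide mitotically until, in females, they enter meiosis.

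The depth recovered from the table was 6779848 reads (ESC-PGCLC replicate 2) to 18572926 reads (ESC replicate 2), with both ESC-PGCLC libraries the shallowest. The 8 pluripotency markers checked summed to 630.3 to 1038 TPM in the stem cells and to 183 to 297 TPM in the other libraries. Sox2 and Utf1 did not follow the sum. Mean Sox2 was 38.7 TPM in ESCs, 49.1 in pESCs, 104 in ESC-PGCLCs, 26.8 in pESC-PGCLCs and 79.2 in PGCs. Mean Utf1 was 24.6, 7.46, 21.3, 54.7 and 61.1 TPM in the same order. The rest had lower means in every PGCLC and PGC group, with Pou5f1 at 0 to 0.374 TPM in ESC-PGCLCs and 1.63 to 3.14 in PGCs. The 10 germ cell markers summed to 408 to 932 TPM (a level scaled to gene length and depth) in the stem cells and 5660 to 8000 TPM in the PGCLC and PGC libraries. Among them Ddx4, at 186 to 303 TPM, and Dazl, at 1084 to 2095 TPM, known from germ cells of the gonad, were high in both kinds of PGCLC and in PGCs. Dppa3 was the largest part of the germ cell sum in every group, and Prdm14 did not follow that sum. Mean Prdm14 was 17.6 TPM in ESCs, 13.0 in pESCs, 17.4 in ESC-PGCLCs, 14.6 in pESC-PGCLCs and 20.8 in PGCs. The 8 blood markers, mostly haemoglobin genes, summed to 0.115 to 4.10 TPM in the stem cells, 437 to 504 TPM in ESC-PGCLCs, 2230 to 2762 TPM in pESC-PGCLCs and 1704 to 1890 TPM in PGCs, although Ptprc, the pan-leukocyte marker, did not exceed 0.103 TPM and was at 0 in ESC-PGCLCs. The 10 measured gonadal somatic markers summed to 7.12 to 9.26 TPM in the stem cells, 26.7 to 33.1 TPM in ESC-PGCLCs, 59.5 to 65.8 TPM in pESC-PGCLCs and 113 to 132 TPM in PGCs. The 11 fibroblast markers did not exceed 13.7 TPM in sum and the 5 endothelial markers 3.83 TPM. In bulk RNA, fewer cells of a type and less RNA per cell cannot be told apart.

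Among RefSeq promoter windows of GRCm38.p6, each from 250 bases before to 50 after a start, 11 windows matched 7 of the 10 genes. Those of Ccne1 and Cdkn1a are printed because Ccne1 had the largest difference of the origins in their change with stage, and Cdkn1a the largest change with stage. They are written 5′ to 3′ on the gene's strand, with motif matches in capitals. The Ccne1 window lies at chr7:38107441-38107740 (minus strand), and its capitals are 4 GC boxes (GGGCGG on either strand), which begin 236, 110, 62 and 49 bases before the start. The Cdkn1a window lies at chr17:29090729-29091028 (plus strand), and its capitals are a pair of CATG cores 6 bases apart, the spacing of adjoining p53 half-sites, which begins 48 bases before the start.
Ccne1: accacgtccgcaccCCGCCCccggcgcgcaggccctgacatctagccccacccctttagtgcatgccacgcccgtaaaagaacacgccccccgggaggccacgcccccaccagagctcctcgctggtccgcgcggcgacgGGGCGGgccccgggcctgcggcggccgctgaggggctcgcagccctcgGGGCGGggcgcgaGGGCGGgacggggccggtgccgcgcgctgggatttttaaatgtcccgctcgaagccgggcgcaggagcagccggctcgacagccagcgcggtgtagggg
Cdkn1a: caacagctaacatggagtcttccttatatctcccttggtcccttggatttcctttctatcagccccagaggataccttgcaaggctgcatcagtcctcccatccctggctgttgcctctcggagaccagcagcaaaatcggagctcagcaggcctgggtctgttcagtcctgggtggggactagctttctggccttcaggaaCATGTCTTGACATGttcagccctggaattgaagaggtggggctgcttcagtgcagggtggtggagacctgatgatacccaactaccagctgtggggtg
A second Cdkn1a window, at a start further downstream and not printed, holds 2 GC boxes and no pair of CATG cores. The printed Cdkn1a window is thus the one that holds the pair. A GC box was in 35.7% of all 32851 windows and in 9 of these 11. The pair of cores (CATG, 6 bases of any kind, CATG) was in 0.712%, and it was searched for after the Cdkn1a window had been read. E2F sites (TTTCGCGC or TTTGGCGC, on either strand) were in 0.813% of all windows and in 0 of these 11. The TATA letters TATAAA were in 13.6% of all windows and in 0 of the 11, and the CHR element TTTGAA was in 17.9% of all windows and in 1 of the 11, that of Cdkn2b. These are matches of letters, not measured binding.

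Of the D-type cyclins, Ccnd1 was the most abundant in every library, Ccnd2 the most variable, and Ccnd3 the least so, with group means from 3.66 to 7.81 TPM. Ccnd1 (chr7:144929931-144939925, minus strand) was at 12.7 and 10.5 TPM in ESCs, 6.40 and 7.20 in pESCs, 4.96 and 7.04 in ESC-PGCLCs, 7.83 and 8.08 in pESC-PGCLCs, and 16.0 and 13.6 in PGCs. PGCs were highest, followed by ESCs, and the ranges of ESC-PGCLCs and pESCs, the lowest, overlapped. Of the 100-base stretches of its transcripts, 19.6% are shared with LTO1, which overlaps it on the opposite strand. Ccnd2 (chr6:127125162-127152193, minus strand) was at 0.646 and 0.751 TPM in ESCs, 0.194 and 0.257 in pESCs, 1.90 and 2.04 in ESC-PGCLCs, 4.92 and 4.69 in pESC-PGCLCs, and 5.93 and 5.80 in PGCs. None of its 5 group ranges overlapped another, and the order ran from pESCs through ESCs, ESC-PGCLCs and pESC-PGCLCs to PGCs. Its values rest on 37 reads over both pESC libraries and on 849 reads over both PGC libraries. Ccnd3 (chr17:47505051-47599691, plus strand) was at 6.52 and 5.68 TPM in ESCs, 3.32 and 4.01 in pESCs, 4.05 and 4.31 in ESC-PGCLCs, 4.68 and 4.88 in pESC-PGCLCs, and 9.81 and 5.82 in PGCs. The PGC libraries differed the most from each other, and the lower one lay within the ESC range. The make-up of the class differed with stage. Ccnd1 made up 62.0% to 64.6% of the D-type TPM in the 4 stem cell libraries and 44.9% to 53.9% in the other 6, whereas Ccnd2 made up 1.95% to 4.44% and 15.2% to 28.2%.

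Both E-type cyclins activate Cdk2, yet their levels followed different orders. Ccne1 (chr7:38097984-38107534, minus strand) was at 26.7 and 24.5 TPM in ESCs, 12.4 and 15.8 in pESCs, 8.29 and 8.21 in ESC-PGCLCs, 23.9 and 24.8 in pESC-PGCLCs, and 33.1 and 19.6 in PGCs. ESC-PGCLCs were lowest and pESCs next, without overlap, and the ranges of pESC-PGCLCs, ESCs and PGCs overlapped. Ccne2 (chr4:11191351-11204779, plus strand) was at 42.0 and 37.2 TPM in ESCs, 23.2 and 37.3 in pESCs, 97.0 and 109 in ESC-PGCLCs, 75.4 and 86.5 in pESC-PGCLCs, and 90.3 and 96.5 in PGCs. All 6 germ cell-stage libraries lay above all 4 stem cell libraries, and pESCs and ESCs overlapped. Ccne2 was above Ccne1 in every library, and the ratio of their TPM was 1.52 to 2.36 in the stem cells, 11.7 and 13.2 in ESC-PGCLCs, 3.15 and 3.49 in pESC-PGCLCs, and 2.73 and 4.93 in PGCs. Ccne2 shares 11.4% of its stretches with Ints8, on the opposite strand.

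Of the 2 Cip/Kip inhibitors followed here, Cdkn1a separated the stages, whereas the libraries overlapped for Cdkn1b, which encodes p27. Cdkn1a (chr17:29090976-29100727, plus strand) was at 212 and 170.4 TPM in ESCs, 151 and 136 in pESCs, 7.66 and 9.28 in ESC-PGCLCs, 24.2 and 28.3 in pESC-PGCLCs, and 22.0 and 18.3 in PGCs. No group overlapped another, and every stem cell library was above every germ cell-stage library. Cdkn1b (chr6:134920401-134925513, plus strand) was at 8.97 and 6.45 TPM in ESCs, 5.60 and 9.43 in pESCs, 3.0 and 7.18 in ESC-PGCLCs, 9.29 and 13.9 in pESC-PGCLCs, and 5.48 and 13.6 in PGCs. Each group's range overlapped that of its neighbour in the order of means, and the PGC libraries alone spanned 159 to 559 reads. Cdkn1a made up 93.5% to 96.4% of the summed TPM of these 2 genes in the stem cells and 56.4% to 80.1% in the other libraries. With Cdkn1c, the remaining gene of the family, added to the sum, its share was 92.5% to 96.0% in the stem cells and 17.4% to 26.3% in the others.

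The 3 Ink4 genes followed here were low throughout. Cdkn2b (chr4:89306299-89311039, minus strand), which encodes p15, was at 3.19 and 2.78 TPM in ESCs, 1.06 and 1.82 in pESCs, 2.26 and 1.94 in ESC-PGCLCs, 1.26 and 1.07 in pESC-PGCLCs, and 2.25 and 2.30 in PGCs. It was the highest of the 3 in every library, and both maternal-only groups lay below the other 3 groups, although on 11 to 46 reads per library. Cdkn2c (chr4:109660876-109667189, minus strand), which encodes p18, was at 0.121 and 0.0940 TPM in ESCs, 0.0847 and 0.172 in pESCs, 0.470 and 0.549 in ESC-PGCLCs, 0.831 and 0.633 in pESC-PGCLCs, and 1.40 in both PGC libraries. The stem cells overlapped and the other 3 groups did not, with 2 to 4 reads per stem cell library and 24 and 34 reads in PGCs. Cdkn2a (chr4:89274471-89294653, minus strand), whose alternative transcripts encode the unrelated proteins Ink4a and Arf and are not separated in a value per gene, was at 0.0926 and 0.646 TPM in ESCs, 0.680 and 0.492 in pESCs, 0.179 and 0 in ESC-PGCLCs, 0 and 0.0907 in pESC-PGCLCs, and 0 and 0.283 in PGCs. It had 1 to 9 reads in each stem cell library and 0 to 3 in each of the others, so Cdkn2a was at or under 3 reads, the limit that a count of 0 allows, in all 6 germ cell-stage libraries.

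**Figure D1:**
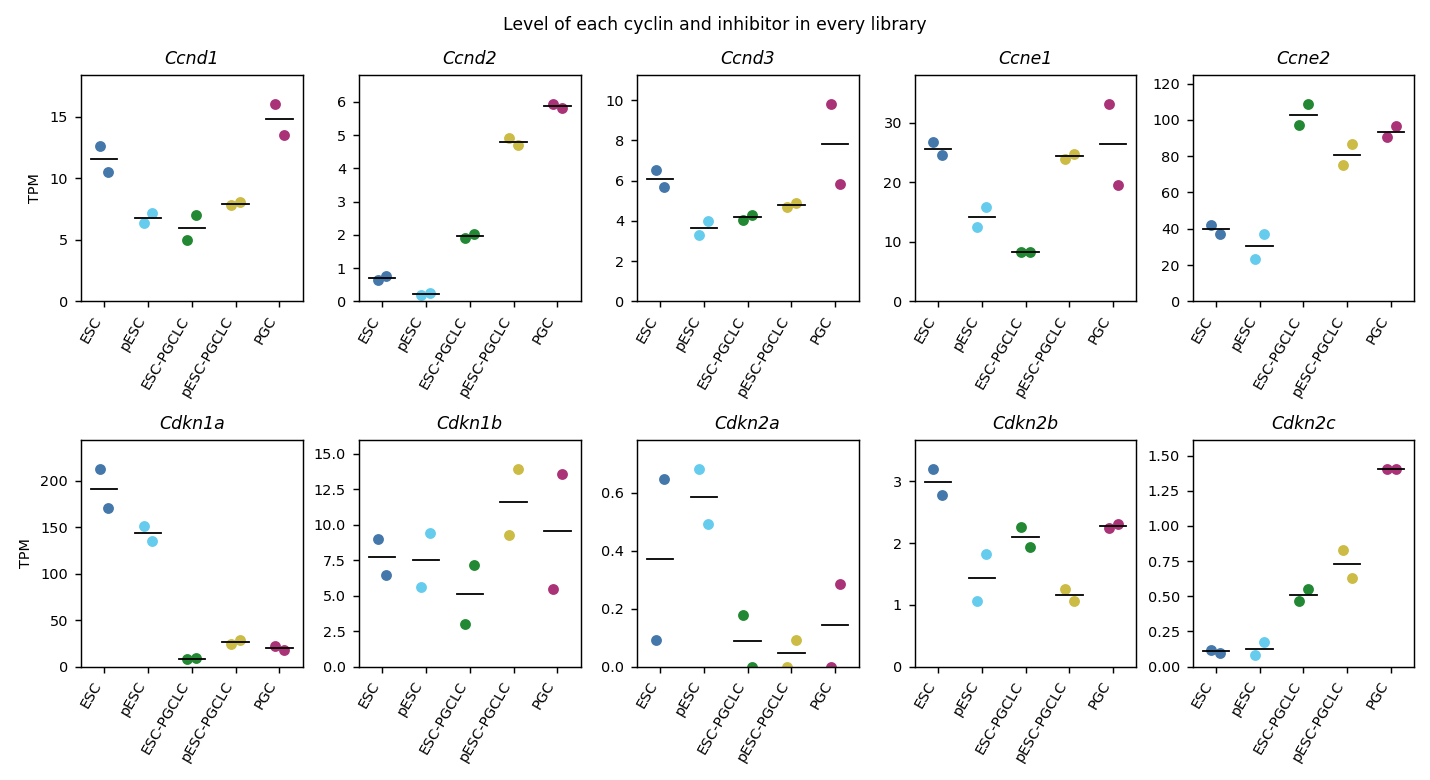
Level of each of the 10 genes in TPM (vertical axes, each from 0) in the 5 groups (horizontal axis). Points are single libraries and lines are means of 2 libraries, and Cdkn1a goes from 136 to 212 TPM in stem cells to 7.66 to 28.3 TPM in the other groups while Ccne2 lies at 75.4 TPM or more there.

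Summed over each class, the cyclins were at 45.6 to 88.5 TPM in the stem cells and at 116 to 155 TPM in the other libraries, and the 5 inhibitors at 147 to 225 TPM and at 13.6 to 44.0 TPM. Ccne2 was the largest part of the cyclin sum and Cdkn1a of the inhibitor sum in every library. The ratio of summed cyclin to summed inhibitor TPM was 0.287 to 0.438 in the 4 stem cell libraries, 8.56 and 6.87 in ESC-PGCLCs, 3.28 and 2.93 in pESC-PGCLCs, and 4.98 and 3.94 in PGCs. ESC-PGCLCs thus had the highest ratio and pESC-PGCLCs the lowest of the germ cell-stage groups, without overlap between the 3 groups. These sums leave out Cdkn1c and Cdkn2d, the remaining genes of the 2 inhibitor families. With both added, the inhibitors summed to 162 to 241 TPM in the stem cells, 56.5 and 65.0 TPM in ESC-PGCLCs, 155 and 166 TPM in pESC-PGCLCs and 181 and 148 TPM in PGCs. The ratio was then 0.267 to 0.400 in the stem cells, 2.06 and 2.00 in ESC-PGCLCs, 0.754 and 0.774 in pESC-PGCLCs, and 0.858 and 0.957 in PGCs. The order was the same, and the germ cell-stage groups lay nearer to the stem cells.

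**Figure D2:**
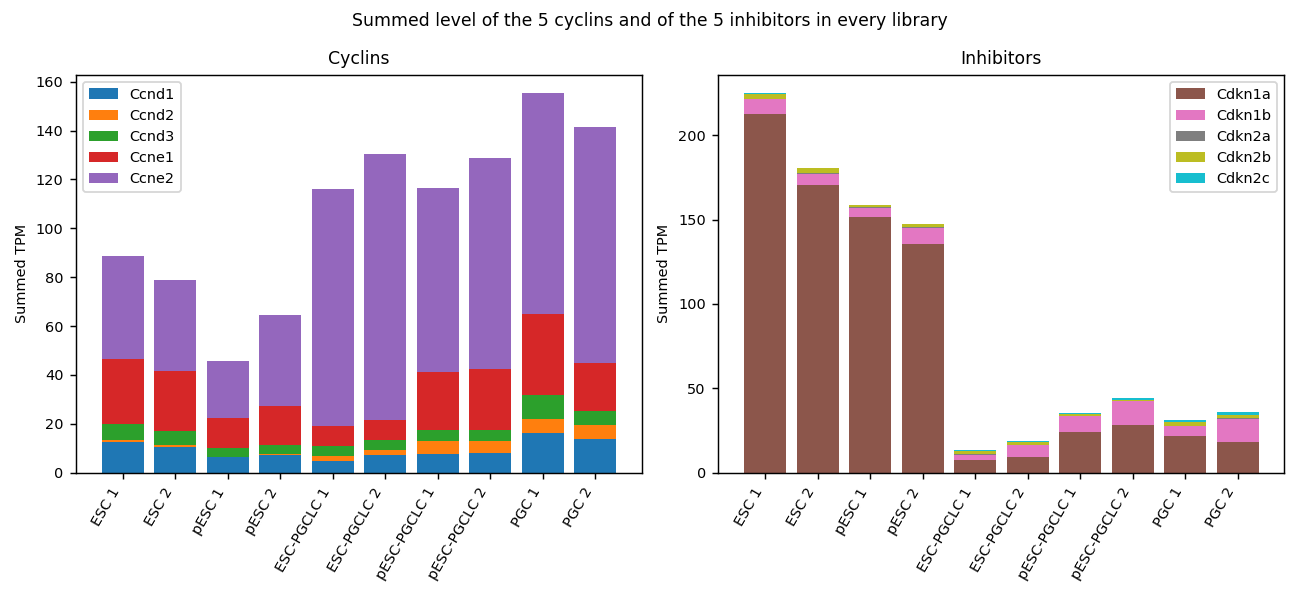
Summed TPM (vertical axes, from 0) of the 5 cyclins (left) and the 5 inhibitors (right) in each of the 10 libraries (horizontal axis), with each gene as a segment of its bar. The inhibitor bars of the stem cells, 147 to 225 TPM, are nearly all Cdkn1a, and the cyclin bars rise to 116 TPM or more in the germ cell-stage libraries, mostly as Ccne2.

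Differentiation was examined first, by comparing each kind of PGCLC with the stem cells it was made from. In ESC-PGCLCs against ESCs, Cdkn1a fell 22.6-fold (log2 difference -4.34, SE 0.177, adjusted p = 2.7e-06 by limma), Ccne1 fell 3.10-fold (-1.52, SE 0.234, adjusted p = 0.0011) and Ccne2 rose 2.60-fold (1.35, SE 0.215, adjusted p = 0.0012). Folds are ratios of mean TPM, and log2 differences are on the scale of log2(TPM + 1), which understates low genes. Calls needed both an adjusted p under 0.05 and a 2-fold difference on that scale. With 1 higher and 2 lower, 3 of the 10 genes were called, against 29.8% of all genes tested (15.3% higher and 14.5% lower). The median of the 10 was -0.41 and that of all genes 0.05. Ccnd1 (-0.86, adjusted p = 0.0069), Ccnd2 (0.81, adjusted p = 0.0033) and Cdkn2c (0.45, adjusted p = 0.019) passed on p by limma but not on size. For the last 2 the size depended on the scale, since the ratio of their TPM was 2.82 and 4.73, and with a pseudocount of 0.1 in place of 1 both were called. From pooled reads the ratio was 2.78 (95% interval 2.21 to 3.51, counting error alone) for Ccnd2 and 4.78 (1.66 to 15.5) for Cdkn2c. The other 4, Ccnd3, Cdkn1b, Cdkn2a and Cdkn2b, had log2 differences from -0.59 to -0.30 and did not pass.

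In pESC-PGCLCs against pESCs, Ccnd2 rose 21.3-fold (log2 difference 2.24, SE 0.154, adjusted p = 2.9e-05 by limma), Ccne2 rose 2.67-fold (1.42, SE 0.215, adjusted p = 0.0011) and Cdkn1a fell 5.47-fold (-2.41, SE 0.177, adjusted p = 3.8e-05). These 3 of 10 stand against 27.6% of all genes tested (20.8% higher and 6.8% lower). The medians were 0.45 for the 10 genes and 0.22 for all genes. From pooled reads the Ccnd2 ratio was 21.3 (95% interval 15.3 to 30.5, counting error alone). Ccne1 (0.76, adjusted p = 0.031), Cdkn2c (0.62, adjusted p = 0.0044) and Cdkn2a (-0.60, adjusted p = 0.049) passed on p by limma but not on size, Cdkn2a on 12 reads in pESCs and 1 in pESC-PGCLCs, a pooled ratio of 0.081 (0.0019 to 0.548). The other 4 genes had log2 differences from -0.16 to 0.58. Scaling mattered here. After median centring of each library over the 9024 genes at 1 TPM or more throughout, the median of all genes moved from 0.22 to -0.51 and the split of called genes from 5681 higher and 1854 lower to 2280 and 5010. With that centring Ccnd2 (1.51) and Cdkn1a (-3.14) stayed called, Ccne2 (0.69) did not, Ccne1 went to 0.03, and Cdkn2a (-1.33), with its 12 reads in pESCs and 1 in pESC-PGCLCs, was called. The sign turned for 4 members, Ccnd1 (0.20 to -0.53, adjusted p = 0.020), Ccnd3 (0.31 to -0.42), Cdkn1b (0.58 to -0.15) and Cdkn2c (0.62 to -0.11). Quantile normalization gave 3307 genes higher and 3022 lower, put Ccne2 at 1.00, not called, and turned Ccnd1 (-0.47, adjusted p = 0.037), Ccnd3 (-0.35) and Cdkn1b (-0.09).

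**Figure D3:**
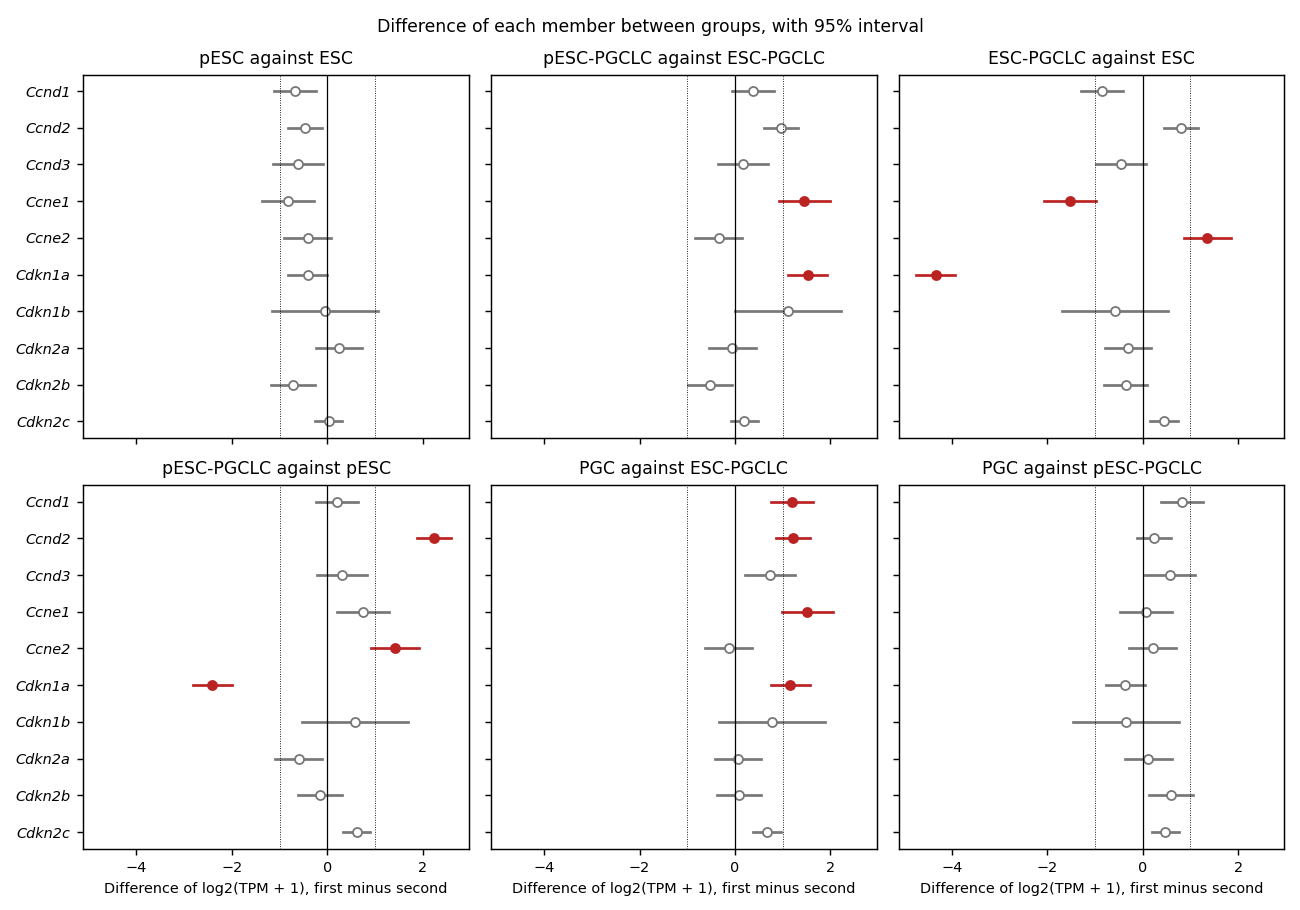
Difference of log2(TPM + 1) between 2 groups, first minus second (horizontal axes), for the 10 genes (rows) in 6 comparisons (panels). Points are limma estimates, bars 95% intervals, filled red points are called and dotted lines mark 2-fold, with Cdkn1a at -4.34 and -2.41 in the PGCLCs against their stem cells.

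The rest of the pathway was read from 59 further genes in 9 lists. Of these, 10 were higher and 16 lower in ESC-PGCLCs against ESCs, beside 15.3% and 14.5% of all genes tested. In pESC-PGCLCs against pESCs 23 were higher and 6 lower, beside 20.8% and 6.8% of all genes. These shares also apply to each list below. After centring the counts were 11 higher and 16 lower in ESC-PGCLCs, but 8 higher and 13 lower in pESC-PGCLCs, where Cdk1 (-1.38) and Cks1b (-1.24) were among those called lower. The kinases that the members act on were among those that fell. Cdk4 (log2 difference -3.66) and Cdk6 (-2.56), partners of the D-type cyclins and targets of Ink4 proteins, and Cdk2 (-1.20), partner of the E-type cyclins, led the 4 of 7 kinase genes called lower in ESC-PGCLCs, and Cdk6 (-1.13) and Cdk4 (-1.08) were lower in pESC-PGCLCs, where Ccnh (1.69), of the Cdk-activating kinase, was higher (0.96 and not called after centring). Both remaining inhibitors were measured. Cdkn1c, the Cip/Kip gene for p57, which is imprinted and expressed from the maternal copy, rose from 0.784 to 1.28 TPM in ESCs to 29.8 to 33.9 TPM in ESC-PGCLCs (4.02), and from 0.725 to 1.64 TPM in pESCs to 59.5 to 65.6 TPM in pESC-PGCLCs (4.89). PGCs had 73.1 to 98.5 TPM of it, so that Cdkn1c was above Cdkn1a and Cdkn1b in all 6 germ cell-stage libraries. Cdkn2d, the Ink4 gene for p19, was at 10.8 to 15.2 TPM in the stem cells, 12.2 to 13.1 TPM in ESC-PGCLCs, 56.9 to 59.6 TPM in pESC-PGCLCs and 38.7 to 51.3 TPM in PGCs, above Cdkn2a, Cdkn2b and Cdkn2c in every library, and it was called higher in pESC-PGCLCs against pESCs (2.20). Of 3 pocket protein genes, Rb1 (1.97 and 2.16) and Rbl2 (1.26 and 1.05) rose in both, though Rbl2 in pESC-PGCLCs was at 0.32 and not called after centring. Of 9 genes of p53 and its targets, 6 fell in ESC-PGCLCs, with Bax (-3.99), Trp53 itself (-3.75) and Phlda3 (2.37 to 5.29 TPM in ESCs and listed at 0 in both ESC-PGCLC libraries) moving most, alongside Cdkn1a. In pESC-PGCLCs 3 fell, Trp53 (-1.55), Ccng1 (-1.25) and Eda2r (-1.01), while Mdm2 (1.28), which encodes the ligase that degrades p53, rose, though not after centring (0.55).

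Among 10 E2F and DP genes, 3 rose in ESC-PGCLCs, led by E2f8 (1.55), and 4 in pESC-PGCLCs, led by Tfdp1 (1.78), and 0 fell in either. Of 12 origin licensing and replication genes, 1 rose in ESC-PGCLCs (Mcm4, 1.24) and 2 fell (Cdc45, -1.36, and Pcna, -1.05), and 6 rose in pESC-PGCLCs, led by Mcm5 (1.62). After centring, none of these 6 was called in pESC-PGCLCs (0.32 for Cdt1 to 0.89 for Mcm5), and of the 4 E2F and DP genes Tfdp1 (1.05) was, but E2f1 (0.41), Tfdp2 (0.64) and E2f6 (0.77) were not. Of 6 genes for the later cyclins and Cdk1, Cdk1 (-2.34) and Ccnb1 (-1.30) fell in ESC-PGCLCs and Ccnb3 (listed at 0 in both ESC libraries and at 1.51 to 1.70 TPM in ESC-PGCLCs) rose, and Ccnb2 (1.97) and Ccna2 (1.19, but 0.46 and not called after centring) rose in pESC-PGCLCs. Of 5 genes for the turnover of cyclin E and p27, Cks1b (-1.27) fell in ESC-PGCLCs, and Cul1 (2.16) and Fbxw7 (1.07, but 0.34 and not called after centring) rose in pESC-PGCLCs. Of 5 known repressors of the Ink4 genes, Id1 (4.19 and 4.38) and the Polycomb gene Bmi1 (3.70 and 3.15) rose in both, and Tbx3 (-1.55 and -1.50), also a pluripotency gene, fell in both. Ezh2 (1.11, but 0.38 and not called after centring), of Polycomb, rose in pESC-PGCLCs.

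The question of maternal-only origin was put first to the stem cells. In pESCs against ESCs 0 of the 10 genes were called by limma, against 0.781% of all genes tested (0.165% higher and 0.616% lower), and 5 had an unadjusted p under 0.05, against 17.7% of all genes. The 213 calls over all genes ranged from 30 without ESC replicate 1 to 953 without pESC replicate 2, and were 124 or fewer without any other 1 library. Those 5, Ccnd1, Ccnd2, Ccnd3, Ccne1 and Cdkn2b, were all lower in pESCs without overlap of the libraries, as was Cdkn1a, against 31.3% of all genes lower without overlap. The 5 had log2 differences from -0.82 (Ccne1, 95% interval -1.37 to -0.28, adjusted p = 0.114) to -0.47 (Ccnd2, adjusted p = 0.157). The medians were -0.44 for the 10 genes and -0.06 for all genes, and after centring the latter was 0.28, with 161 genes called higher and 30 lower in place of 45 and 168. All 5 genes kept their sign under centring (-0.49 to -0.14) and under quantile normalization (-0.61 to -0.35). In a fit of the 4 stem cell libraries alone no gene of any kind was called, with 4276 at an unadjusted p under 0.05. Cdkn1a differed by -0.41 (adjusted p = 0.284) and Cdkn1b by -0.05 (95% interval -1.16 to 1.05). For Ccnd2 the pooled read ratio was 0.32 (95% interval 0.22 to 0.46, counting error alone), and voom on the recovered reads called it lower. Of the 59 pathway genes limma called 0, and 25 had an unadjusted p under 0.05.

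Between the PGCLCs of either origin, Cdkn1a was 3.10-fold higher (log2 difference 1.53, SE 0.177, adjusted p = 0.00086 by limma) and Ccne1 2.95-fold higher (1.45, SE 0.234, adjusted p = 0.0036) in pESC-PGCLCs than in ESC-PGCLCs. These were the 2 of 10 called, both higher, against 10.3% of all genes tested called higher, 3.08% called lower and 13.4% called in either direction. Ccnd2 (0.97, adjusted p = 0.0034), with a TPM ratio of 2.44, fell just short on the log scale and was called with a pseudocount of 0.1. Cdkn1b had a log2 difference of 1.11 without overlap, but with an SE of 0.479 and an adjusted p of 0.140 by limma it did not pass. Cdkn2b was on the other side, at -0.52 (adjusted p = 0.103), and the remaining 5 genes had log2 differences from -0.34 to 0.37. The medians were 0.28 for the 10 genes and 0.12 for all genes. With centring, which moved the median of all genes to -0.29 and the split of called genes from 2812 higher and 839 lower to 1460 and 1891, Cdkn1a (1.12) and Ccne1 (1.04) were still called, and quantile normalization (1735 and 1316) also kept both, at 1.23 and 1.13. Haemoglobin and gonadal somatic markers, given above, also differed between these groups, and their part in these differences was not tested. Both shallow libraries of the series are on 1 side of this comparison, with 129 and 134 reads for Cdkn1a and 89 and 105 for Ccne1.

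Beside 10.3% of all genes called higher and 3.08% lower, 10 of the 59 pathway genes were called higher and 0 called lower in pESC-PGCLCs. These 10 came from 5 of the 9 lists. They were Cdk4 (1.96), Cdk7 (1.27) and Cdk6 (1.16) of the kinases, Cdkn2d (2.12), Cdc45 (1.42) and Mcm5 (1.41) of replication, Ccnb2 (1.69) and Cdk1 (1.30) of the later cycle, and Bax (3.01) and Trp53 (1.26) of the p53 list. After centring 6 of these were still called (Cdk4, Cdkn2d, Mcm5, Cdc45, Ccnb2 and Bax), and 3 pathway genes were called lower, E2f8 (-1.11), Mnat1 (-1.10) and Ccnb3 (-1.08). Without centring 0 genes were called in the pocket protein, E2F and DP, turnover and Ink4 repressor lists.

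Whether the origins changed differently on differentiation was tested as the difference of the 2 differences. It was called positive for 4 of the 10 genes, Ccne1 (2.28, SE 0.332, adjusted p = 0.0025 by limma), Cdkn1a (1.93, SE 0.250, adjusted p = 0.0016), Ccnd2 (1.44, SE 0.218, adjusted p = 0.0030) and Ccnd1 (1.06, SE 0.270, adjusted p = 0.027). Ccne1 fell 3.10-fold in the ESC origin and was 1.73-fold above its stem cells in the pESC origin (log2 difference 0.76, or 0.03 after centring), Cdkn1a fell in both but less in the pESC origin, and Ccnd2 was higher after differentiation in both but more so in the pESC origin. The 4 of 10 stand against 15.5% of all genes called positive, 3.53% called negative and 19.1% called in either direction, with medians of 0.91 for the 10 and 0.21 for all genes. Without ESC replicate 1 the 5197 calls over all genes were 3305. Ccne2 (0.07, 95% interval -0.64 to 0.78, but -0.67 after centring) and Cdkn1b (1.17, -0.40 to 2.74) did not pass. Nor did Ccnd3 (0.77), Cdkn2b (0.21), Cdkn2c (0.17) or Cdkn2a (-0.30). After centring, where the median of all genes was -0.54 and the split of called genes went from 4236 positive and 961 negative to 1727 and 4062, Ccne1 (1.53) and Cdkn1a (1.19) stayed called, Ccnd2 (0.69) and Ccnd1 (0.31) did not, and Cdkn2a (-1.04) was. With quantile normalization (2254 and 1627) Ccne1 (1.57), Cdkn1a (1.48) and Ccnd2 (1.17) were called and Ccnd1 (0.39) was not. Ccnd1 was also lost without any 1 of 5 libraries: ESC, pESC or ESC-PGCLC replicate 1 or either pESC-PGCLC library (0.84 to 1.08). Against the same shares of all genes, 15.5% and 3.53%, 22 of the 59 pathway genes were called positive and 0 called negative. These were 4 of the kinases, led by Cdk4 (2.57), Cdkn2d (2.42), 1 of the E2F and DP genes (E2f6, 1.43), 7 of the replication genes, led by Mcm5 (2.23) and Cdc45 (2.10), 3 of the later cyclins with Cdk1, led by Ccnb2 (2.10), 2 of the turnover genes (Cul1, 1.51, and Skp2, 1.03), and 4 of the p53 list, led by Bax (4.00) and Trp53 (2.20). After centring 7 were called positive and 7 called negative.

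**Figure D4:**
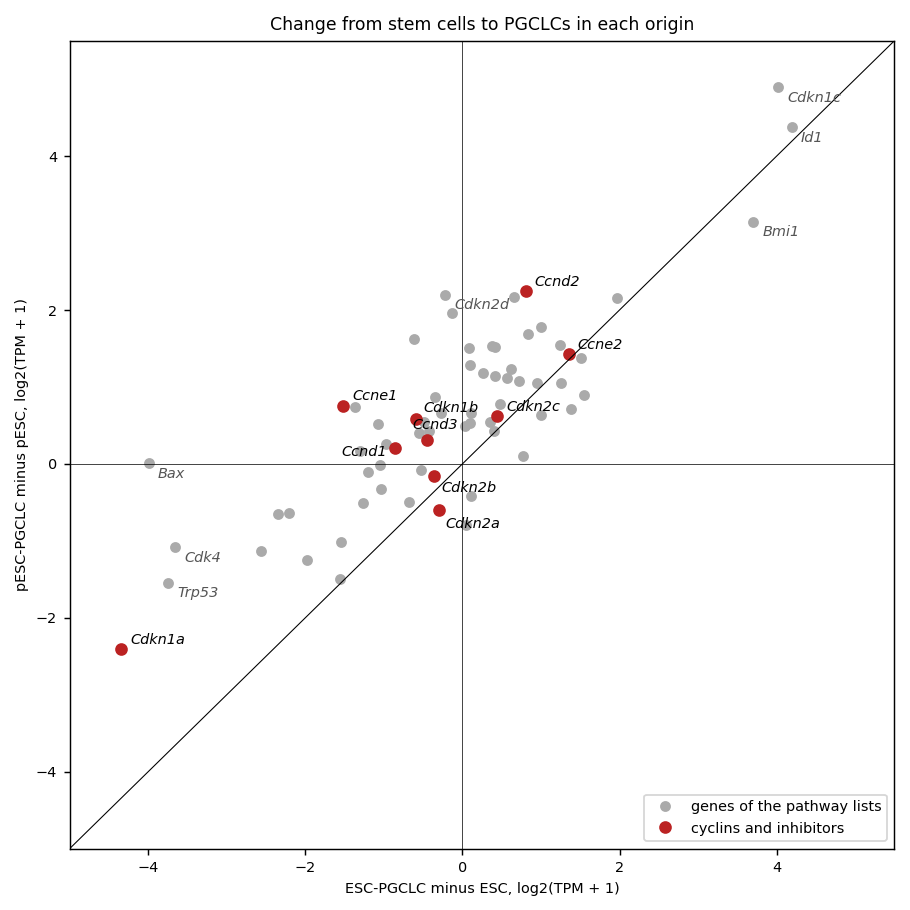
Difference of log2(TPM + 1) from stem cells to PGCLCs in the ESC origin (horizontal axis) and in the pESC origin (vertical axis). Red points are the 10 genes, grey points the 59 pathway genes and the diagonal marks equal change, with Ccne1 at -1.52 and 0.76 and Cdkn1a at -4.34 and -2.41 both above it.

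PGCs were the reference for the germ cell state. Against ESC-PGCLCs, PGCs had more Ccne1 (3.19-fold, log2 difference 1.52, SE 0.234, adjusted p = 0.0037 by limma), Ccnd2 (2.98-fold, 1.21, SE 0.154, adjusted p = 0.0021), Ccnd1 (2.47-fold, 1.19, SE 0.191, adjusted p = 0.0042) and Cdkn1a (2.38-fold, 1.16, SE 0.177, adjusted p = 0.0035). The 4 of 10 were all higher, against 12% of all genes called higher, 1.88% called lower and 13.8% in either direction, with medians of 0.75 and 0.27. Ccnd3 (0.73, adjusted p = 0.043) and Cdkn2c (0.67, adjusted p = 0.0067) passed on p by limma but not on size, Cdkn2c with a pooled read ratio of 2.77 (95% interval 1.47 to 5.66, counting error alone). Ccne2, Cdkn2a and Cdkn2b were between -0.14 and 0.08, and Cdkn1b was at 0.76 (adjusted p = 0.270) with overlapping libraries. From ESC-PGCLCs to PGCs the gonadal somatic sum also went from 26.7 to 33.1 TPM to 113 to 132 TPM, and the blood sum from 437 to 504 TPM to 1704 to 1890 TPM. The order of the 5 groups in Ccnd2 was that of the gonadal somatic sum, but 956 genes had a profile similar to Ccnd2 at a Pearson's r of at least 0.95. In the stem cells most of that sum was Fst and Amhr2, which differed in opposite directions. Mean Fst was 4.65 TPM in ESCs and 2.70 in pESCs, and mean Amhr2 3.89 and 4.37. The part of gonadal somatic and blood cells in the differences was not tested. The calls changed with the scaling and with the libraries fitted. Quantile normalization (938 genes higher and 966 lower, in place of 3260 and 512) left Ccne1 (1.06) alone. Centring (712 and 2003, with a median of all genes of -0.34) left 0, with values from 0.55 (Cdkn1a) to 0.91 (Ccne1) for the 4, and a fit of these 4 libraries alone left no call over the whole table, with 9328 at an unadjusted p under 0.05. Without ESC-PGCLC replicate 1 Ccnd1 (0.97) was lost, and without PGC replicate 2 Ccnd3 (1.06) was gained.

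Against pESC-PGCLCs 0 of the 10 genes were called by limma, 4 had an unadjusted p under 0.05 (29.2% of all genes did), and 3.67% of all genes were called, 2.07% higher and 1.6% lower in PGCs (after centring, 293 genes higher and 821 lower in place of 564 and 436). Those 1000 calls over all genes fell to 34 and 65 without pESC-PGCLC replicate 2 and 1, to 142 without PGC replicate 1 and to 252 and 250 without ESC replicate 1 and 2, and rose to 1966 without PGC replicate 2. In the compared groups alone they were 0, with 6687 at an unadjusted p under 0.05. Ccnd1 was 1.86-fold higher in PGCs (log2 difference 0.82, adjusted p = 0.043 by limma), the one gene that passed on p. It no longer passed after centring (0.62, adjusted p = 0.0502 by limma) or with quantile normalization (0.57, adjusted p = 0.0596). Cdkn2b (0.60), Ccnd3 (0.57) and Cdkn2c (0.47) had adjusted p-values of 0.095, 0.143 and 0.054, and the pooled read ratios were 1.97 (95% interval 1.22 to 3.23, counting error alone) for Cdkn2b and 1.93 (1.25 to 3.02) for Cdkn2c. Ccne1 (0.06, 95% interval -0.48 to 0.61), Ccne2 (0.21, -0.29 to 0.71), Ccnd2 (0.24, -0.11 to 0.60) and Cdkn1a (-0.37, -0.78 to 0.04) did not pass, and their intervals hold differences of under 2-fold alone. That of Cdkn1b (-0.35, -1.46 to 0.76) is wider. The 2 comparisons with PGCs share the PGC libraries, and the comparison of PGCs with ESC-PGCLCs shares the latter with the comparisons of origin and differentiation. Of the 59 pathway genes 12 were higher and 1 lower in PGCs against ESC-PGCLCs, beside 12% and 1.88% of all genes. Bax (1.90), Cdkn2d (1.74), Cdk4 (1.68) and Mcm5 (1.52) led those that were higher. Against pESC-PGCLCs 1 was higher (E2f4, 1.02) and 3 lower (Cdk7, -1.31, Bax, -1.10, and Cks1b, -1.03), beside 2.07% and 1.6% of all genes.

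For the 7 members with a group mean of at least 5 TPM, the genes with the most similar profile over the 10 libraries were sought among 11186 genes. For Ccnd1 they were G3bp1 (Pearson's r 0.986) and Sec23b (0.981), for Ccnd2 Nrep (0.997) and Lonp1 (0.996), for Ccnd3 Ecd (0.985) and Skp2 (0.973), and for Ccne1 Plp2 (0.983) and Top3b (0.983). For Ccne2 they were Armcx5 (0.995) and Gcc2 (0.995), for Cdkn1a Icam1 (0.996) and Sap25 (0.996), and for Cdkn1b Tsku (0.897) and Rpap2 (0.856). The number of genes as similar differed widely. At least 0.95 was reached by 956 genes for Ccnd2, 939 for Ccne2 and 608 for Cdkn1a, but by 61 for Ccne1, 9 for Ccnd3, 4 for Ccnd1 and 0 for Cdkn1b. Among the members themselves, Ccne2 and Cdkn1a ran opposite (r = -0.92) and Ccnd1 and Ccnd3 together (r = 0.90), over points that share stage and library.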

How the data were processed

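The authors aligned filtered reads to the mm10 genome by Hisat2, assigned them to genes by featureCounts and deposited TPM for 36066 genes. Tool versions are not given in the sources used here. The submitters' processing notes also name Bowtie2, RSEM, R 3.4.2 and DESeq2. Library preparation is described as Smart-seq2 in the methods and as NEBNext in the labels. Multiplied by GENCODE M21 exon length (GRCm38), 94.7% to 94.9% of TPM above 0 came out whole within 0.02 reads, after a factor per library. This gave the reads used for depth, floors and intervals. Cdkn1a, at 0.017 to 0.46 reads from whole, and Cdkn2b, at 0.024 to 0.099, did not come out whole at that limit in most libraries. Their reads were rounded and are approximate. Overlapping genes can share reads, and intervals from reads, which carry no molecular identifiers, cover counting error only.

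Genes that reached 0.1 TPM in 2 or more libraries were fitted as log2(TPM + 1) with limma 3.58.1 in R 4.3.3, with 1 mean per group over all 10 libraries (5 residual and 2.81 prior degrees of freedom, variance trend), two-sided, and Benjamini-Hochberg adjustment over 27259 genes in each of 7 comparisons. The study's count-based test could not be used on TPM, so limma took its place. For 2 libraries against 2 the smallest exact permutation p is 0.333, so p-values rest on this model. Alternatives tried were another pseudocount (0.1), another filter (1 TPM) or none, quantile normalization, median centring, the compared groups alone, voom on recovered reads, a replicate block and leaving out each library. Members, gene lists and tests were chosen with earlier results of these data known. All members are named, with up to 3 called genes per list and comparison. Tables were made with Python 3.11.15 and pandas 2.3.3.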

Additional observations from a re-analysis of the deposited data

Results flagged for a closer look

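Without further scaling, the change from stem cells to PGCLCs differed between the maternal-only and the fertilized origin for 4 of the 10 genes. The difference itself was tested in limma (pESC origin minus ESC origin, on the scale of log2(TPM + 1)). Of all genes tested, 19.1% were called, 15.5% positive and 3.53% negative. For Ccne1 the difference was 2.28 (adjusted p = 0.0025), from changes of 0.76 and -1.52. For Cdkn1a it was 1.93 (adjusted p = 0.0016), from changes of -2.41 and -4.34, and for Ccnd2 it was 1.44 (adjusted p = 0.0030), from changes of 2.24 and 0.81. For Ccnd1 it was 1.06 (adjusted p = 0.027 by limma), from changes of 0.20 and -0.86. With median centring Ccne1 (1.53) and Cdkn1a (1.19) stayed called, but Ccnd2 (0.69) and Ccnd1 (0.31) did not. With quantile normalization Ccnd1 (0.39) alone of the 4 was not called. In each case both pESC-PGCLC libraries lay above both ESC-PGCLC libraries. Among the stem cells the order was the reverse for each gene, with ESCs higher without overlap, though not called. Of all genes, 31.3% were lower in pESCs without overlap, and the share for the order between the PGCLCs was not counted. The 4 genes were picked for a positive difference between origins, which favours both orders, so these orders add no support. For Ccnd1 the pESC minus ESC difference was -0.69, and that between the PGCLCs was 0.37, not called, and -0.04 after centring. For Ccne1 (-0.82 and 1.45), Cdkn1a (-0.41 and 1.53) and Ccnd2 (-0.47 and 0.97) the difference between the PGCLCs was the larger. No group has enough libraries for a test of single libraries that stand apart. The shallower sequencing of both ESC-PGCLC libraries cannot be told apart from the group.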

How the results depend on the processing

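Of the recomputed counts of called genes, 228 stayed within 1.5 times the reported count and 24 did not. Counts of 0 that stayed at 0 are among those that stayed. Single members were recomputed only where they had passed on adjusted p. Of these changes 428 kept their direction and their call, 15 gained a call and 23 lost it. The 1 that reversed was Cdkn2c in pESC-PGCLCs against pESCs, at -0.11 with median centring. Many refits could not turn a direction. Other filters, the compared groups alone, the replicate block and leaving out a library of an uncompared group leave the log2 difference as it was. These tallies therefore overstate how firm the results are. Over all 10 members and 7 comparisons the sign changed 15 times with median centring and 11 times with quantile normalization. With voom on recovered reads the members called were 1 (Ccnd2) in pESCs against ESCs, 6 in ESC-PGCLCs against ESCs and 5 in pESC-PGCLCs against pESCs, and with a pseudocount of 0.1 they were 5 in ESC-PGCLCs against ESCs. In PGCs against ESC-PGCLCs 1 member was called with quantile normalization, 0 with median centring and 0 in the compared groups alone, and of the pathway genes 6, 5 and 0. In PGCs against pESC-PGCLCs 0 pathway genes were called in the compared groups alone. For the difference between origins 12 pathway genes were called with quantile normalization (9 positive) and 14 with median centring (7 positive). The cause of these shifts was not tested.

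Without each library in turn, the members called numbered 0 to 0 in pESCs against ESCs and in PGCs against pESC-PGCLCs, 2 to 3 in pESC-PGCLCs against ESC-PGCLCs, 3 to 4 in ESC-PGCLCs against ESCs, 3 to 3 in pESC-PGCLCs against pESCs, 3 to 5 in PGCs against ESC-PGCLCs and 3 to 4 for the difference between origins. There Ccnd1 was lost without ESC replicate 1, pESC replicate 1, ESC-PGCLC replicate 1 or either pESC-PGCLC library (0.84 to 1.08). Ccnd1 was also lost in PGCs against ESC-PGCLCs without ESC-PGCLC replicate 1 (0.97). The pathway genes called numbered 0 to 6 in pESCs against ESCs (6 without pESC replicate 2), 8 to 17 in PGCs against ESC-PGCLCs (8 without PGC replicate 1), 0 to 5 in PGCs against pESC-PGCLCs (0 without either ESC library, either pESC-PGCLC library or PGC replicate 1, and 1 without either ESC-PGCLC library) and 14 to 27 for the difference between origins (14 without ESC replicate 1 or pESC-PGCLC replicate 2). A lone library is assumed to vary like the other groups.

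Replicate numbers recur across groups, but the deviations of same-numbered libraries correlated by -0.051 to 0.238 over 14839 genes, so the numbers were not taken to pair the libraries. With the replicate block the members called were again 0, 2, 3, 3, 4, 0 and 4 over the 7 comparisons. Depth limits Cdkn2a and Cdkn2c most, since 3 reads stand for 0.0940 TPM of Cdkn2c in ESC replicate 2 and for 0.274 TPM in ESC-PGCLC replicate 2.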
